A study of Mus musculus with 32 samples.

Results

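The genes described here make up the core of MHC class II antigen presentation: Cd74, H2-Aa, H2-Ab1, H2-Eb1, H2-DMa, H2-DMb1 and Ciita. These 7 genes were taken by name from the 53801 gene IDs of the deposited tables, and 6 of them were among the 12817 genes that passed the TPM filter. Their levels were measured in quadriceps muscle of 32 mice, 1 RNA-seq library per mouse, which fell into 8 groups of 4. The groups were wild type (WT) or homozygous for the Col6a2 tm1(KOMP)Vlcg allele (Col6a2-/-), aged 5 or 25 weeks, female or male. Both genotypes came from heterozygous parents on a C57BL/6J background reached by 5 generations of backcrossing from C57BL/6N. Col6a2 encodes one chain of the matrix protein collagen VI, and the series title concerns the availability of TGFβ in muscle. The allele is carried by every cell, and RNA came from cryosections of whole muscle, so fibres, vessels, connective tissue and immune cells were measured together.

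MHC class II molecules are αβ pairs on the cell surface that show peptides from the endosomal pathway to CD4+ T cells. In mice of this background H2-Aa and H2-Ab1 encode the α and β chains of I-A, H2-Eb1 encodes the β chain of I-E, and the gene for the I-E α chain is a pseudogene. Cd74 is the invariant chain that escorts new class II molecules and blocks their groove, H2-DMa and H2-DMb1 encode the dimer that exchanges its remnant for peptide, and Ciita is the co-activator that switches the class II genes on. Constitutive expression is a property of dendritic cells, B cells and macrophages, while other cells, muscle fibres included, are known to express the genes after interferon-γ.

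The I-A, I-E and DM genes lie in the MHC on chromosome 17 (build GRCm38, coordinates as the tables give them): H2-DMa at chr17:34135182-34139101, H2-DMb1 at chr17:34153072-34160230, H2-Ab1 at chr17:34263209-34269418, H2-Aa on the minus strand at chr17:34282744-34287827 and H2-Eb1 at chr17:34305877-34316199. Ciita lies at chr16:10480059-10528418. Class II promoters are known for an X box and, a short way downstream, a Y box, on which the complex that recruits Ciita is built. RefSeq promoter windows (build GRCm38.p6) were present for 4 members, H2-Aa, H2-Eb1, H2-DMa and H2-DMb1. The letters searched, on both strands of the 250 bases before each start, were GNAAC as the core of an X box and ATTGG as a Y box, with 20 to 35 bases between their first letters. The pair was found for H2-Aa, H2-DMb1 and H2-Eb1, against 2.35% of 32851 windows of all genes, and was not found in the 2 windows of H2-DMa. Those 2 windows belong to RefSeq starts at 34122832 and 34125518, upstream of the H2-DMa start at 34135182 given above. The bases before 34135182 were not searched for H2-DMa, so whether the pair lies there was not tested. The 120 bases before the RefSeq start of the 2 chain genes with a window are shown because the members moved together in the results. Capitals mark the X core and the Y box.
H2-Aa, chr17:34287824-34287943, minus strand: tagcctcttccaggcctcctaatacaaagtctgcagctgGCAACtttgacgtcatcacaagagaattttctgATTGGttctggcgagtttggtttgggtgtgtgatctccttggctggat
H2-Eb1, chr17:34305747-34305866, plus strand: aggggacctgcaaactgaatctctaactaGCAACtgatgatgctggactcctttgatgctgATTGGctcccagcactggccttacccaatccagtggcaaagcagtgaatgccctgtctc
The 20 bases around the X core of the 3 genes are set side by side, with the core in capitals, because they show how alike the stretch is between a chain gene and a DM gene.
H2-Aa: ctgGCAACtttgacgtcatc
H2-Eb1: ctaGCAACtgatgatgctgg
H2-DMb1: ctaGTAACtgatgatgctag
The X core and the Y box started 33, 32 and 33 bases apart in H2-Aa, H2-Eb1 and H2-DMb1. A match of letters is a description and was not tested for binding.

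Values are TPM, a transcript abundance scaled for the length of each gene and to the same total in each library, so that levels can be compared between genes. Inferred depth was 6.78 to 13.69 gigabases per library. Mitochondrial genes took 31.9 to 46.9% of TPM and the small RNA Rn7s 20.8 to 30.5%, and the remaining genes shared 28.4 to 44.2%. Col6a2 separated the genotypes: its highest level in a Col6a2-/- library was 0.171 TPM and its lowest in a WT library 6.60 TPM (two-sided exact permutation test, p = 0.000155 at each age, the smallest possible). Markers of skeletal muscle fibres were abundant in every library, with a summed level of 14062 to 22488 TPM over 8 genes.

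Class II genes spanned a wide range across libraries, and the medians given first are over both genotypes. Cd74 was the most abundant member by median level, with a median of 40.7 TPM and a range of 11.05 to 112 TPM over the 32 libraries. The I-A and I-E chains followed, with medians of 28.1 TPM for H2-Aa, 16.7 TPM for H2-Ab1 and 14.6 TPM for H2-Eb1. The DM genes were lower, at medians of 1.74 TPM for H2-DMa and 2.02 TPM for H2-DMb1. Ciita was the lowest, at a median of 0.335 TPM, and reached 1 TPM in too few libraries to pass the filter. In WT muscle at 5 weeks the medians were 17.95 TPM for Cd74, 13.7 TPM for H2-Aa, 1.06 TPM for H2-DMa and 1.05 TPM for H2-DMb1. No member was listed at 0 in any library. The mean read depth over a gene was 80.6 to 764 for Cd74 and 31.8 to 277 for H2-Aa but 5.41 to 29.6 for H2-DMa, 3.29 to 31.99 for H2-DMb1 and 0.180 to 3.15 for Ciita, whose single values are therefore the least precise.

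At 5 weeks all 7 members were higher in Col6a2-/- muscle, about 4-fold to 5-fold for the invariant chain and the I-A and I-E chains and about 3-fold to 4-fold for the DM genes. H2-Aa, the I-A α chain, stood at 11.6, 10.2, 16.05 and 12.4 TPM in WT females and at 15.0, 8.76, 17.2 and 16.1 TPM in WT males. In Col6a2-/- mice it stood at 67.1, 86.5, 46.0 and 27.7 TPM in females and at 82.1, 63.4, 57.2 and 68.8 TPM in males. Every Col6a2-/- library was thus above every WT library, and the Col6a2-/- female replicate 4 was the nearest to WT. The mean TPM of H2-Aa was 4.65 times the WT mean, and its log2 change was 2.10 ± 0.22 (SE; limma, adjusted p = 9.2e-08, n = 8 per genotype). Here and below a log2 change is the difference of means of log2(TPM + 1), Col6a2-/- minus WT, which understates the change of low genes. Whole muscle RNA cannot tell more cells of a type from more RNA per cell, at either age.

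The partner chain and the I-E chain moved by nearly the same amount. H2-Ab1, the I-A β chain, ranged from 5.55 to 10.2 TPM in the 8 WT libraries (median 7.28) and from 16.6 to 51.9 TPM in the 8 Col6a2-/- libraries (median 36.3), a log2 change of 2.09 ± 0.22 (limma, adjusted p = 7.7e-08). H2-Eb1 ranged from 4.43 to 8.34 TPM in WT (median 6.96) and from 15.4 to 44.0 TPM in Col6a2-/- (median 34.5), a log2 change of 2.11 ± 0.21 (limma, adjusted p = 4.4e-08). The ranges of the genotypes were apart for both chains, and the lowest Col6a2-/- value of each again came from female replicate 4.

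Cd74, the invariant chain (chr18:60803848-60812646), stood at 16.8, 11.05, 24.2 and 19.1 TPM in WT females and at 22.7, 13.05, 26.8 and 14.7 TPM in WT males at 5 weeks. The Col6a2-/- values were 61.7, 112, 68.3 and 42.7 TPM in females and 107, 86.0, 51.1 and 92.2 TPM in males. No value of one genotype reached the range of the other, and the log2 change was 1.99 ± 0.23 (limma, adjusted p = 5.7e-07), a 4.18-fold higher mean TPM. The chaperone genes changed less on this scale. H2-DMa went from a WT median of 1.06 TPM (0.723 to 1.54) to 3.43 TPM (1.57 to 4.66), a log2 change of 1.08 ± 0.14 (limma, adjusted p = 2.8e-06). H2-DMb1 went from a WT median of 1.05 TPM (0.613 to 1.34) to 4.25 TPM (1.96 to 5.42), a log2 change of 1.31 ± 0.14 (limma, adjusted p = 1.8e-07). The smallest gap between genotypes was that of H2-DMa, where the Col6a2-/- female replicate 4 at 1.57 TPM lay just above the WT male replicate 1 at 1.54 TPM.

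Ciita, the co-activator, was under 0.3 TPM in every WT library at 5 weeks. Its values were 0.0960, 0.0712, 0.279 and 0.109 TPM in WT females and 0.0868, 0.0901, 0.232 and 0.238 TPM in WT males. They were 1.03, 1.26, 0.700 and 0.508 TPM in Col6a2-/- females and 1.36, 0.785, 0.816 and 0.706 TPM in Col6a2-/- males. The mean was 5.96 times the WT mean, no library overlapped between genotypes, and the log2 change of 0.71 gave p = 0.000408 in a two-sided exact permutation test within sex, the smallest that test can give.

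Of the 6 members tested across all genes, 6 were called higher at 5 weeks, where 23.2% of all tested genes were called higher (limma, adjusted p under 0.05). The members' median log2 change was 2.04, against 0.15 for all tested genes. Other scalings moved that all-gene median to between -0.025 and 0.17, and 6 of 6 members were called under each of the 4. All 6 also had their 8 Col6a2-/- libraries above their 8 WT libraries, as had 1.18% of all tested genes. Within one sex, 6 of 6 were called higher in females (12.3% of all genes) and 6 of 6 in males (4.55%), and ranges were apart for 6 of 6 in each sex (8.53% of all genes in females, 9.32% in males). The all-gene counts behind these shares rested on single libraries: genes called in either direction numbered 1648 in females, 455 without Col6a2-/- female replicate 2 and 3865 without replicate 4, and 645 in males, 313 without Col6a2-/- male replicate 1 and 1003 without replicate 4. With only the 5-week female groups in the fit 99 genes were called higher, and 5 of 6 members were called in females, without H2-DMa (limma, adjusted p = 0.0559). The female changes ran from 1.10 to 2.05 and the male changes from 1.06 to 2.20.

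**Figure D1:**
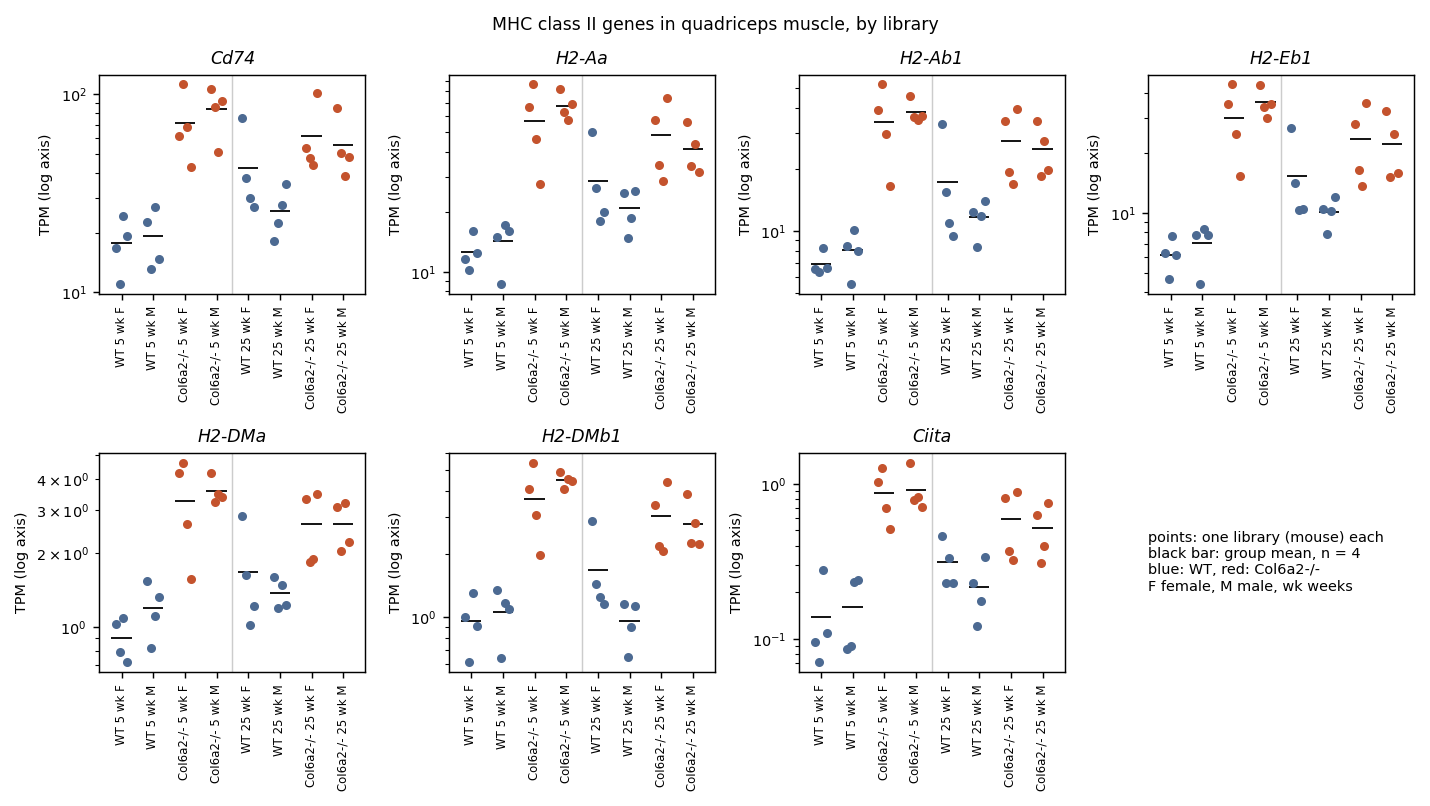
TPM of the 7 members (log axis, one scale per gene) in each of the 8 groups of genotype, age in weeks (wk) and sex (F, M); each point is a library and each black bar a group mean (n = 4). At 5 weeks no point of a Col6a2-/- group (red) falls to the level of a WT group (blue), and at 25 weeks the WT female replicate 1 lies within the Col6a2-/- range for each member.

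At 25 weeks the members were still higher in Col6a2-/- muscle, by about 1.7-fold to 2.2-fold, and the genotypes overlapped. H2-Aa stood at 49.9, 26.3, 17.9 and 20.0 TPM in WT females and at 24.8, 14.8, 18.7 and 25.5 TPM in WT males. In Col6a2-/- mice it stood at 57.5, 34.4, 28.5 and 74.2 TPM in females and at 56.0, 34.0, 43.8 and 31.7 TPM in males. One library made the overlap: the WT female replicate 1, at 49.9 TPM, was above 5 of the 8 Col6a2-/- libraries, while the other 7 WT libraries were below all of them. The log2 change of H2-Aa was 0.86 ± 0.22 (limma, adjusted p = 0.0236), and 1.01 without that library (limma, adjusted p = 0.00643).

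The same WT female had the highest WT value of every member at 25 weeks. Cd74 stood at 75.7, 37.6, 30.0 and 27.0 TPM in WT females and at 18.2, 22.3, 27.6 and 35.0 TPM in WT males. Its Col6a2-/- values were 53.4, 47.5, 44.1 and 102 TPM in females and 85.1, 50.4, 38.6 and 48.3 TPM in males. The WT female replicate 1 exceeded 6 of the 8 Col6a2-/- libraries and no other WT library reached any of them. Cd74 had a log2 change of 0.81 ± 0.23 (limma, adjusted p = 0.0432).

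The other chains and the DM genes gave changes of like or smaller size. H2-Ab1 had a WT median of 12.2 TPM (8.41 to 33.4) and a Col6a2-/- median of 23.7 TPM (16.9 to 39.3), a log2 change of 0.87 ± 0.22 (limma, adjusted p = 0.0200). H2-Eb1 had medians of 10.5 TPM (7.88 to 26.5) and 20.7 TPM (13.6 to 35.6), a log2 change of 0.79 ± 0.21 (limma, adjusted p = 0.0305). For both chains the top of the WT range was the female replicate 1, and for H2-Eb1 the WT female replicate 2, at 14.1 TPM, also lay above the lowest Col6a2-/- library. H2-DMa had medians of 1.36 TPM (1.02 to 2.83) and 2.64 TPM (1.84 to 3.47), a log2 change of 0.53 ± 0.14 (limma, adjusted p = 0.0299). H2-DMb1 had medians of 1.16 TPM (0.643 to 2.85) and 2.52 TPM (2.07 to 4.40), a log2 change of 0.76 ± 0.14 (limma, adjusted p = 0.00264), the smallest adjusted p of the members at this age. Ciita stood at 0.462, 0.231, 0.333 and 0.228 TPM in WT females and 0.230, 0.122, 0.176 and 0.338 TPM in WT males, against 0.809, 0.368, 0.322 and 0.883 TPM in Col6a2-/- females and 0.625, 0.307, 0.395 and 0.748 TPM in males. Its genotypes overlapped in both sexes, and its log2 change was 0.29 (two-sided exact permutation within sex, p = 0.00735).

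All 6 tested members were called higher at 25 weeks, against 4.47% of all tested genes, with a median log2 change of 0.80 against 0.082 for all tested genes. None of the 6 had the genotypes fully apart, as had 0.663% of all genes. The calls other than that of H2-DMb1 were close to the threshold. Leaving out single libraries brought the count of called members to 5 (WT male replicate 1, Col6a2-/- male replicate 4, and the 5-week WT female replicate 1 and Col6a2-/- female replicate 1), to 4 (WT female replicate 2, Col6a2-/- male replicate 3), to 3 (WT male replicate 3), to 2 (WT female replicate 3) or to 1 (WT female replicate 4, WT male replicate 2, Col6a2-/- female replicates 1 and 4, Col6a2-/- male replicate 1), while H2-DMb1 stayed called with each of the 32 libraries left out in turn. Cd74 lost its call in 12 of these 32 fits (limma, adjusted p of 0.0501 to 0.121). Without a filter on low values 1 member was called, and 5 were called without mitochondrial and Rn7s genes, with FPKM or with robust eBayes, where Cd74 was the one lost (adjusted p of 0.0510 to 0.0559).

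In neither sex alone did the members pass as a group at 25 weeks. In females 0 of 6 were called, as were 0% of all genes in the higher direction. An unadjusted limma p under 0.05 was found for 4 of the 6 and for 621 of the 12817 tested genes. Changes of the 6 tested members ran from 0.45 to 0.76 with adjusted p from 0.681 to 1, and the ranges overlapped for all 7 members (3.8% of all genes were apart). Single libraries moved these changes, though 0 of 6 were called with any library left out. Without the Col6a2-/- female replicate 4 Cd74 went from 0.56 to 0.30 and H2-Eb1 from 0.58 to 0.35. Without the WT female replicate 1 Cd74 and H2-Eb1 were at 0.87, and H2-Ab1 went from 0.72 to 1.07. In males H2-DMb1 alone was called, with a log2 change of 0.94 ± 0.20 (limma, adjusted p = 0.0123), against 2.91% of all genes. The genes called in males in either direction numbered 388, and 55 without Col6a2-/- male replicate 1 to 816 without the 5-week Col6a2-/- female replicate 2. All 6 had an unadjusted limma p under 0.05 in males, as had 2532 of the 12817 tested genes. The Col6a2-/- males were above the WT males for 6 of 6 tested members (13.9% of all genes). Male changes ran from 0.60 to 1.06. The male count was 0 without WT male replicate 2 or Col6a2-/- male replicate 1, and rose to 3 without WT female replicate 1 or Col6a2-/- male replicate 2, to 4 without the 5-week Col6a2-/- female replicate 2 and to 6 without the 5-week Col6a2-/- female replicate 4. It was 6 when only the 25-week male groups entered the fit, where 626 of all genes were called higher, against 373 in the main fit. The difference between the sexes was itself tested, over both ages: the male minus female differences of the genotype effect were 0.055 to 0.33 and 0 of 6 were called (limma, adjusted p = 0.999762 for each). Of all genes 0.0156% were called in either direction. An unadjusted limma p under 0.05 was found for 0 of the 6 and for 206 of the 12817 tested genes.

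**Figure D2:**
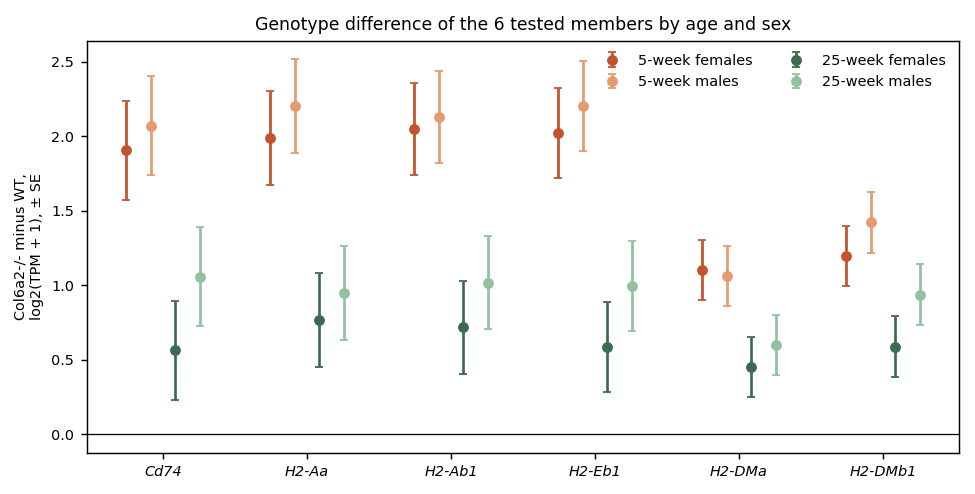
Log2 change of the 6 tested members, Col6a2-/- minus WT on the log2(TPM + 1) scale, in each sex and age (points, limma estimate; bars, ± SE). The 5-week changes, from 1.06 to 2.20, sit above the 25-week changes of the same gene and sex, which run from 0.45 to 1.06.

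The genotype difference was smaller at 25 than at 5 weeks for all 6 tested members, and 1 of them passed the test of that difference. H2-Eb1 had a genotype-by-age change (25 minus 5 weeks) of -1.32 ± 0.30 (limma, adjusted p = 0.0356), where 0.421% of all genes were called lower. The values of the others were -1.18 for Cd74, -1.24 for H2-Aa, -1.22 for H2-Ab1, -0.56 for H2-DMa and -0.55 for H2-DMb1. All 6 had an unadjusted limma p under 0.05, as had 898 of the 12817 tested genes. The adjusted limma p of the 5 members other than H2-Eb1 ran from 0.0781 to 0.449. The call of H2-Eb1 was near the threshold: it was lost, at adjusted p of 0.0518 to 0.0771 and a change of -1.18 to -1.33, when any of 17 of the 32 libraries was left out. These were WT 5-week female replicates 1, 2 and 4 and male replicate 2, WT 25-week female replicates 1 and 2 and male replicates 1, 3 and 4, Col6a2-/- 5-week female replicates 1 and 2 and male replicates 1 and 2, and Col6a2-/- 25-week female replicates 2 and 3 and male replicates 2 and 4. The count of called members was 2 to 4 without WT 25-week female replicate 4 (2), Col6a2-/- 25-week female replicate 4 (3) or Col6a2-/- 5-week female replicate 4 (4). All genes called in either direction numbered 63, and 49 to 229 with a library left out. The 229 came without the same Col6a2-/- 5-week female replicate 4. Over the alternatives other than leaving out a single library they numbered 32 to 163.

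Age was compared within each genotype. In WT mice 4 of 6 members were called higher at 25 than at 5 weeks, where 4.47% of all genes were called higher: Cd74 by 0.78 (adjusted p = 0.0183), H2-Aa by 0.78 (adjusted p = 0.0130), H2-Ab1 by 0.77 (adjusted p = 0.0125) and H2-Eb1 by 0.79 (adjusted p = 0.00888; limma, n = 8 per age). The median of all tested genes in this comparison was -0.076. H2-DMa and H2-DMb1 had changes of 0.28 and 0.18 and did not pass. The WT median of the summed macrophage markers was 53.7 TPM at 5 and 42.7 TPM at 25 weeks, that of the leukocyte markers 14.8 and 13.3 TPM, and that of the B cell markers, nearly all of it Ighm, 22.1 and 43.9 TPM; their part in the age difference was not tested. Without the 25-week WT female replicate 1 the change of Cd74 was 0.62 (adjusted p = 0.0533). In Col6a2-/- mice H2-DMb1 was called lower at 25 weeks, with a log2 change of -0.37 (limma, adjusted p = 0.0456), where 28.8% of all genes were called lower and the median of all genes was -0.14. The other 5 had changes of -0.27 to -0.53 with adjusted p of 0.0540 to 0.189. Under each of the 4 other scalings of the libraries 0 members were called in Col6a2-/- mice and 5 of 6 in WT mice. All genes called higher in WT mice then numbered 1139 to 1777, against 573 in the main fit. Those called lower in Col6a2-/- mice numbered 2128 to 2515, against 3695 in the main fit. With no filter on low values the H2-DMb1 call was lost too, and the 1 member called in Col6a2-/- mice was Ciita, with a change of -0.28 (limma, adjusted p = 0.0321); in WT mice Ciita had a change of 0.14 (adjusted p = 0.488). Of 12 alternatives other than leaving out a single library, 8 lost the H2-DMb1 call, at adjusted p of up to 0.184. The H2-DMb1 call was also lost, at adjusted p of 0.0501 to 0.135, when any of 15 libraries was left out: WT 5-week female replicates 1 and 4 and male replicates 3 and 4, WT 25-week male replicate 3, Col6a2-/- 5-week female replicates 1 and 2 and male replicates 1, 3 and 4, and Col6a2-/- 25-week female replicates 2 and 3 and male replicates 2, 3 and 4. The count was 2 without WT 25-week female replicate 1, Col6a2-/- 25-week female replicate 1 or male replicate 1, 3 without Col6a2-/- 25-week female replicate 4 and 5 without Col6a2-/- 5-week female replicate 4. Genes called in either direction for age in Col6a2-/- mice numbered 4389, and 3464 to 5506 with a library left out. The 5506 came without the same Col6a2-/- 5-week female replicate 4. The sexes, averaged over genotype and age, differed by -0.092 to 0.065 (male minus female), and 0 of 6 members were called (limma, 3.05% of all genes in either direction). An unadjusted limma p under 0.05 was found for 0 of the 6 and for 1689 of the 12817 tested genes.

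Ranked by mean TPM, the 8 groups fell in nearly one order for every member. The lowest was the 5-week WT female group, followed by the 5-week WT males, the 25-week WT males, the 25-week WT females, both 25-week Col6a2-/- groups, the 5-week Col6a2-/- females and the 5-week Col6a2-/- males. For H2-Aa the means were 12.6 ± 2.49, 14.3 ± 3.78, 20.9 ± 5.11 and 28.5 ± 14.7 TPM in the WT groups, and 41.4 ± 11.1, 48.6 ± 21.1, 56.8 ± 25.5 and 67.9 ± 10.6 TPM in the Col6a2-/- groups (SD, n = 4), in that order with males before females at 25 weeks. The exceptions were H2-DMb1, where the 25-week WT males came before the 5-week WT males, and H2-DMa, where the 25-week Col6a2-/- females (2.630 TPM) came just before the males (2.633 TPM). Every group overlapped in range with the next one up, for all 7 members.

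The chains of I-A and I-E kept narrow proportions to each other. Across all 32 libraries the TPM ratio of H2-Eb1 to H2-Aa ran from 0.425 to 0.579, and that of H2-Ab1 to H2-Aa from 0.474 to 0.669, while the TPM of H2-Aa itself spanned 9.88-fold. Ratios within a library do not depend on how libraries are scaled to each other. They were compared between genotypes by two-sided exact permutation within sex, 18 tests in all, with adjustment over the 18, a comparison added after the data were seen. The ratio of H2-DMa to H2-Aa at 5 weeks was lower in Col6a2-/- muscle, by a log2 difference of -0.50, with a median of 0.0553 (0.0493 to 0.0630) against 0.0801 (0.0582 to 0.103) in WT (exact permutation p = 0.00122, adjusted p = 0.00735). At 25 weeks that ratio differed by -0.078 (adjusted p = 0.581). H2-DMb1 to H2-Aa at 5 weeks had a difference of -0.18 that did not pass (exact permutation, adjusted p = 0.168). At 25 weeks the ratio of H2-DMb1 to H2-Aa was higher by 0.32, with medians of 0.0648 in Col6a2-/- and 0.0513 in WT (exact permutation, adjusted p = 0.0257).

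The invariant chain and the I-A β chain showed no called shift against H2-Aa. The ratio of Cd74 to H2-Aa was 0.735 to 1.08 in 7 libraries, drawn from both genotypes, and 1.30 to 1.68 in the other 25. Cd74 to H2-Aa differed by -0.13 at 5 weeks and -0.054 at 25 weeks (exact permutation, adjusted p = 0.581 and 0.824), and H2-Ab1 to H2-Aa by 0.055 and 0.034 (adjusted p = 0.581 and 0.679). H2-Eb1 to H2-Aa at 5 weeks differed by 0.097 (exact permutation, adjusted p = 0.0382), a call lost when any of 10 of the 16 libraries was left out (adjusted p of 0.0558 to 0.0940). These were WT female replicates 2, 3 and 4, WT male replicates 3 and 4, Col6a2-/- female replicates 1, 3 and 4 and Col6a2-/- male replicates 1 and 2. At 25 weeks the ratio of H2-Eb1 to H2-Aa differed by -0.046 (exact permutation, adjusted p = 0.581). Ciita to H2-Aa was higher by 0.52 at 5 weeks without passing (exact permutation p = 0.0396, adjusted p = 0.119). Without WT female replicate 3 that difference was 0.66 (exact permutation, adjusted p = 0.0367). At 25 weeks Ciita to H2-Aa was higher by 0.17 (exact permutation, adjusted p = 0.581), and by 0.013 without the Col6a2-/- male replicate 4.

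Ratios to genes of the cells that carry class II were compared in the same way. Ptprc encodes CD45, carried by all leukocytes, and the ratio of H2-Aa to Ptprc had medians of 8.47 in WT and 8.71 in Col6a2-/- muscle at 5 weeks, a log2 difference of 0.20 (exact permutation, adjusted p = 0.473). Without the WT male replicate 2 that difference was 0.10. At 25 weeks the ratio of H2-Aa to Ptprc differed by -0.11 (exact permutation, adjusted p = 0.581). Csf1r encodes the receptor for macrophage colony-stimulating factor, and H2-Aa to Csf1r was 1.90 to 3.52 in WT (median 2.52) and 4.57 to 6.43 in Col6a2-/- libraries (median 5.198) at 5 weeks. The ranges were apart, and the log2 difference was 1.09 (exact permutation p = 0.000408, adjusted p = 0.00735). At 25 weeks the same ratio overlapped between genotypes, at a median of 5.55 in WT and 5.89 in Col6a2-/- muscle, a difference of 0.087 (adjusted p = 0.581). Adgre1 encodes F4/80, a macrophage surface protein, and H2-Aa to Adgre1 differed by 0.46 at 5 weeks (exact permutation, adjusted p = 0.00735) and by -0.12 at 25 weeks (adjusted p = 0.238; -0.17 and 0.00490 without the Col6a2-/- female replicate 4). In the 25-week WT female replicate 1, the library with the highest WT level of each member, H2-Aa to Ptprc was 8.59, the lowest of the 8 WT libraries at that age, and H2-Aa to Csf1r was 7.55, the highest of the 8.

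**Figure D3:**
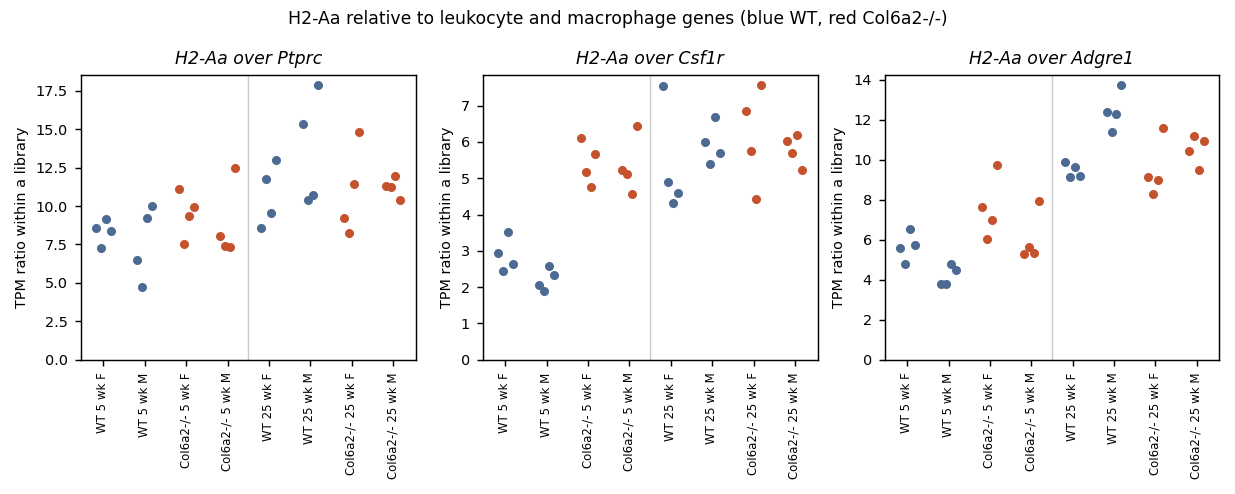
Ratio of H2-Aa TPM to the TPM of Ptprc, Csf1r and Adgre1 within each library (linear axes from 0; points, libraries; blue WT, red Col6a2-/-; age in weeks and sex below). For Csf1r the 5-week WT libraries, at 1.90 to 3.52, lie below the other groups, and at 25 weeks the genotypes overlap for all 3 ratios.

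The class II part of the MHC was looked at as a stretch of chromosome 17. From the start of H2-DMa to the end of H2-Ea-ps the tables list 17 genes over 209 kb, of which 10 were tested. Neighbours of the members that serve class I presentation changed less: Tap1, a subunit of the peptide transporter, by 0.49 ± 0.16 (limma, adjusted p = 0.0261) and Psmb8, an immunoproteasome subunit, by 0.52 ± 0.13 (adjusted p = 0.00356) at 5 weeks. Psmb9 and Tap2 had changes of 0.20 and 0.29 and did not pass (adjusted p = 0.250 and 0.0506). H2-DMb2, the second DM β gene, changed by 0.52 ± 0.14 at 5 weeks (adjusted p = 0.00924). Of the 100-base stretches of H2-DMb1 transcripts (GENCODE M21), 11.3% also occur in H2-DMb2, so reads of these genes could have been split and their values are uncertain to that extent. Of those of H2-DMa 6.58% also occur in Brd2, and H2-Aa, H2-Ab1, H2-Eb1 and Cd74 share none with another gene. The microRNA gene Mir5107 lies within Cd74 and is shorter than the stretches searched, so reads shared with it were not tested. The pseudogene of the I-E α chain, H2-Ea-ps, was listed at 0 in every library, while its would-be partner H2-Eb1 reached 44.0 TPM.

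**Figure D4:**
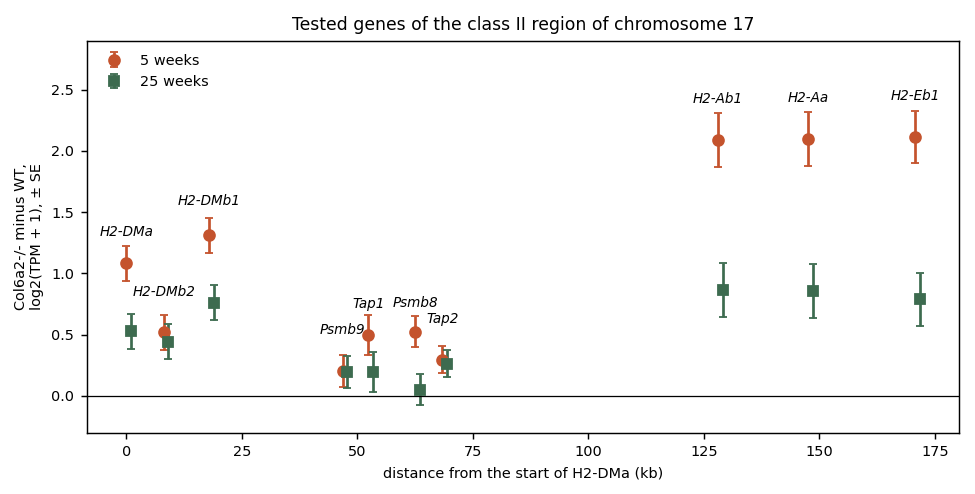
Log2 change (log2(TPM + 1), Col6a2-/- minus WT, ± SE) of the 10 tested genes of the class II region at 5 weeks (circles) and 25 weeks (squares), against distance from the start of H2-DMa in kilobases; squares are shifted by 1 kb. H2-Ab1, H2-Aa and H2-Eb1 lie near 2.1 at 5 weeks, and the class I genes between them and the DM genes lie at 0.20 to 0.52.

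Other genes of the class II pathway were read from a list of 14 proteases and other enzymes, ligases, DM and DO genes and further class II chain genes, of which 10 were tested. At 5 weeks 8 of the 10 were called higher and 0 lower (23.2% of all genes higher), with a median change of 0.54, and at 25 weeks 3 were higher (4.47%), with a median of 0.28. Ctss, cathepsin S, which trims the invariant chain, had a median of 4.20 TPM in WT and 25.8 TPM in Col6a2-/- muscle at 5 weeks, a log2 change of 2.17 ± 0.17 (limma, adjusted p = 2.5e-10), and 1.19 at 25 weeks (adjusted p = 0.000135). Lgmn, legumain, another endosomal protease, rose by 1.27 at 5 weeks and 0.65 at 25 weeks (adjusted p = 1.0e-07 and 0.00594), and Ctsb, cathepsin B, by 0.56 and 0.38. Ifi30, the thiol reductase of endosomes, rose by 0.66 and March1, a ligase that marks class II molecules for turnover, by 0.57 at 5 weeks. H2-Oa was listed at 0 in 21 of the 32 libraries, H2-Eb2 in 26 and H2-Ea-ps in 32. The 5-week count was 8 of 10 under each of the 4 other scalings, and the 25-week count was 2 to 5.

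Of 15 tested regulators and inducers of class II transcription 5 were called higher and 0 lower at 5 weeks, where 23.2% of all genes were called higher. At 25 weeks 0 were called by limma, where 4.47% of all genes were called higher. An unadjusted limma p under 0.05 was found for 4 of the 15 (Spi1, Ifngr1, Rfxank and Irf8) and for 2469 of the 12817 tested genes. With median-of-ratios size factors or without the 100 most abundant genes 1 of the list was called higher and 1 lower. With quantile normalization 1 was called lower. Among those called at 5 weeks were Spi1 (0.75), Irf8 (0.52), Irf1 (0.44) and Ifngr1 (0.44). Rfx5, Rfxank and Rfxap, the subunits of the factor that binds the X box, had changes of 0.20, 0.13 and -0.064, and Nfya, Nfyb and Nfyc, which bind the Y box, 0.21, -0.088 and 0.044; none of these 6 passed. Under 3 of the other scalings 3 or 4 genes of the list were called lower at 5 weeks. Of all genes 1005 to 1672 were called lower under these 3, against 274 in the main fit. Ifng, which encodes interferon-γ, was listed at 0 in 21 of 32 libraries and was at most 0.0543 TPM in the rest. Of 12 tested interferon-γ response genes 8 were called higher at 5 weeks, against 23.2% of all genes, and 0 at 25 weeks, against 4.47%, with median changes of 0.56 and 0.19. The chemokine gene Cxcl10 led them with 1.25 at 5 weeks (adjusted p = 1.5e-06) and 0.10 at 25 weeks, and its genotype-by-age change was -1.15 (limma, adjusted p = 0.00695).

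Class I presentation and co-stimulation were read beside class II. Of 14 class I genes 11 were called higher at 5 weeks (23.2% of all genes), with a median change of 0.50, and 0 at 25 weeks (4.47%), with a median of 0.26. B2m, the light chain of class I, rose by 0.96 at 5 weeks, H2-D1 by 0.87, H2-K1 by 0.76 and Nlrc5, the class I counterpart of Ciita, by 0.63. Of 3 tested co-stimulation genes Cd86 (0.49) and Icosl (0.37) were called higher at 5 weeks and 0 at 25 weeks. Cd274 had a change of 0.071 and did not pass. At 5 weeks the class I count was 10 to 12 under the other scalings, and the co-stimulation count was 1 under quantile normalization and 2 under the rest. At 25 weeks 1 of the 14 class I genes was called higher without the 100 most abundant genes and with quantile normalization, and 0 under the rest.

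Many macrophage and leukocyte markers were called higher together with the members. Of 12 macrophage genes 11 were called higher at 5 weeks (against 23.2% of all genes tested) and 8 at 25 weeks (against 4.47%), or 9 to 11 and 7 to 8 under the other scalings, with median changes of 0.99 and 0.62; their summed level was 47.7 to 81.1 TPM in WT and 54.3 to 192 TPM in Col6a2-/- libraries at 5 weeks, and 27.4 to 63.5 and 58.96 to 107 TPM at 25 weeks. Of 6 genes of all leukocytes 6 and 5 were called higher, also under each of the other scalings, with median changes of 1.33 and 0.72, and a summed level of 11.3 to 21.5 TPM in WT against 21.04 to 75.4 TPM in Col6a2-/- libraries at 5 weeks. Of 8 dendritic cell genes 3 were tested; Itgax (CD11c) rose by 1.05 at 5 weeks and 0.67 at 25 weeks, Zbtb46 was called at 5 weeks (0.30), where 3 of the 4 other scalings called 1 of the 3 genes in place of 2, and the summed level was 1.90 to 3.55 TPM in WT and 3.04 to 8.34 TPM in Col6a2-/- libraries at 5 weeks. Flt3, Xcr1 and Clec9a, other genes of the dendritic cell list, were under 0.4 TPM in every library. The part of these cells in the members' levels was not tested.

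Markers of other cell types were read in the same way. Of 7 B cell genes only Ighm was tested, with a change of -0.31 at 5 weeks that did not pass. None of 7 T cell genes was tested, their summed level was 0.156 to 0.578 TPM in WT (median 0.286) and 0.566 to 2.34 TPM in Col6a2-/- libraries (median 1.29) at 5 weeks, and Cd3e was listed at 0 in 23 of 32 libraries. Of 4 tested monocyte and neutrophil genes Ccr2 (1.61) and Ly6c2 (0.48) were called higher at 5 weeks and 0 of 4 at 25 weeks, or 2 of 4 at 25 weeks under 2 of the other scalings. Of 5 fibroblast genes 3 were called higher at 5 weeks (23.2% of all genes) and 3 at 25 weeks (4.47%), with median changes of 0.32 and 0.63; Col3a1 changed by 1.04 and 1.25. Under other scalings the fibroblast count was 2 or 3 at each age. Of 4 endothelial genes 2 were called higher at 5 weeks, and 0 to 1 under the other scalings. Of 8 muscle fibre genes Myh4 (-0.43) and Ckm (-0.33) were called lower at 5 weeks, against 2.14% of all genes, with a median change of 0.023; the count lower was 3 with median-of-ratios size factors, where 1479 genes were called lower and the median was -0.17, and 1 with quantile normalization, where it was 0.091.

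**Figure D5:**
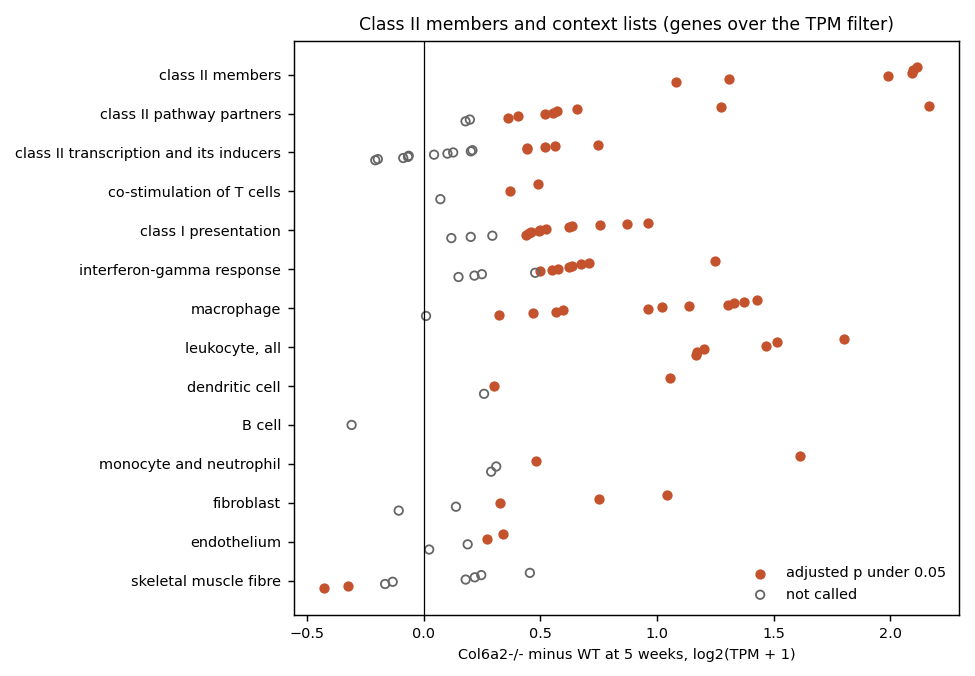
Log2 change at 5 weeks (log2(TPM + 1), Col6a2-/- minus WT) of each tested gene of the members and of 13 context lists; filled points passed limma at adjusted p under 0.05 and open points did not. The 6 tested members lie at 1.08 to 2.11, and Ctss (2.17) is the one listed gene above them.

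The genes whose pattern was most like that of the members were sought among all other tested genes, by Pearson r over the 32 libraries with the mean of the members' standardised log2 values. The most alike were Lyz1 (0.962), Lyz2 (0.952) and Itgb2 (0.952), followed by Ptprc (0.938), Coro1a, Cd48, Cd52, Ctss, Csf2ra and Ccl6 down to 0.925. Because differences between groups can contribute to such a likeness, it was repeated after each group's mean was subtracted. That leaves differences between mice of one group. The most alike were then Lyz2 (0.929), Adgre1 (0.921) and Ctss (0.918), and Nckap1l, Lrmp, Itgb2, Tyrobp, Coro1a and Cd48 were among the next, down to 0.882. Cd48, Coro1a, Ctss, Itgb2 and Lyz2 were among the 10 most alike both times. The 32 points share the scale of their library, and no test was applied.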

How the data were processed

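RNA of quadriceps cryosections from 32 mice was sequenced by paired-end TruSeq RNA-seq, per the labels' protocols. The submitters' processing notes name FastQC, MultiQC, Trimmomatic, HISAT2, SAMtools and StringTie and the builds GRCm38 and mm10; the annotation and the strand setting are not given in the sources used here, so reads from the 0.324% of 100-base stretches that Ciita transcripts share with the antisense gene Dexi cannot be assigned. The deposited TPM values, FPKM values and coverage values (mean read depth) are the authors', per the file headers, with a separate file for each library. TPM was summed per gene ID and tested as log2(TPM + 1). FPKM served as an alternative, and coverage with FPKM to infer depth, whose scale exceeds what the instrument in the labels usually yields and is relative only. No interval for counting error was given, since no counts were used.

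The 12817 genes that reached 1 TPM in 4 or more libraries entered 1 limma model (limma 3.58.1, R 4.3.3, lmFit, eBayes with trend) with 8 group means, 11 two-sided comparisons and Benjamini-Hochberg adjustment over all genes; called means adjusted p under 0.05. For Ciita, under the filter, and for ratios, genotype was permuted exactly within each sex. The model was also run on simulated data, with results that are not reported here. Python 3.11.15, numpy 2.4.6, pandas 2.3.3 and matplotlib 3.10.9 were used. Alternatives were the pseudocount, filters, 4 scalings, FPKM, other eBayes settings, a replicate block, only the groups compared, and each library left out. Named genes are the 7 members, up to 6 genes of each list with the smallest p at 5 weeks and 3 at 25 weeks, and the 10 genes most alike. Rfx and Nfy subunits, class II neighbours, Ifng, Cd274, H2-Oa, H2-Eb2 and some cell type markers at or near 0 were named besides. The members and lists were chosen with earlier results of these data known. A few genes that this rule names are not reported here.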

Additional observations from a re-analysis of the deposited data

Results flagged for a closer look

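Each member was examined for a library far from the other 3 of its group, in 56 groups of 4. Of these, 5 had a gap to the nearest library over the group's range above Dixon's 95% critical value, where chance gives about 1 in 20. Cd74 in the Col6a2-/- 25-week female replicate 4 was the highest of its group (0.839), at 102 TPM. H2-Ab1 in the WT 5-week female replicate 3 was the highest (0.867), at 8.23 TPM, and H2-Eb1 in the WT 5-week male replicate 2 the lowest (0.862), at 4.43 TPM. H2-DMb1 in the WT 25-week female replicate 1 was the highest (0.838), at 2.85 TPM, and Ciita in the Col6a2-/- 5-week male replicate 1 the highest (0.833), at 1.36 TPM. The genotype difference of H2-Eb1 differed between ages by a test of the difference itself, with a genotype-by-age change of -1.32 (limma, adjusted p = 0.0356).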

How the results depend on the processing

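Over both sexes, 6 of 6 members were called at 5 weeks under each scaling and with each of the 32 libraries left out, 4 of 4 at 5 TPM or more and 7 of 7 with no filter; in 5-week females 5 of 6 were called with only the groups compared. All-gene counts moved further: genes called at 5 weeks ran from 1553 to 3695 over the alternatives other than leaving out a single library and from 2207 to 4749 with one left out, and at 25 weeks from 343 to 1282 and from 270 to 983. The split at 5 weeks, 2979 higher and 274 lower, became 1623 and 1479 with median-of-ratios size factors, 1861 and 1005 without the 100 most abundant genes and 1413 and 1672 with quantile normalization; at 25 weeks, 573 and 30 became 750 and 532, 925 and 261, and 483 and 365. For age in WT the split, 573 higher and 1963 lower, became 1710 and 1953 with median-of-ratios size factors and 1777 and 1680 with quantile normalization. It was 1139 and 1173 without mitochondrial and Rn7s genes, and 1386 and 2115 without the 100 most abundant genes. Members called at 25 weeks numbered 1 with no filter, and 1 to 6 with a library left out. Members called for genotype by age numbered 0 with no filter, 3 with median-of-ratios, without mitochondrial and Rn7s genes, or with quantile normalization, 2 without the 100 most abundant genes, and 0 to 4 with a library left out. In 25-week males 3 members were called with a pseudocount of 0.1 (718 of all genes called higher), against 1 in the main fit (373 higher). At 5 TPM or more 0 of 4 were called, where H2-DMa and H2-DMb1 did not pass the filter. The count was 2 without the 100 most abundant genes (763 higher) and 6 with only the groups compared (626 higher). It was 4 without WT 25-week female replicate 1 and Col6a2-/- 25-week female replicate 4 together (added after seeing the data), and 0 to 6 with a library left out. Members called for age in Col6a2-/- numbered 0 under the pseudocount of 0.1, under the 4 scalings, with FPKM and with only the groups compared. They also numbered 0 of 4 at 5 TPM or more, again without the DM genes in the fit. The count was 4 without those 2 female libraries, and 0 to 5 with a library left out. The causes were not tested. Counts for age in WT were 3 to 5, and 3 to 4 with a library left out; those of 25-week females, genotype by sex and sex were 0 throughout.

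The uncalled sex differences changed sign: without those 2 female libraries they were 0.053 for Cd74, 0.13 for H2-Aa (0.133), 0.13 for H2-Ab1 (0.129), 0.12 for H2-Eb1 (0.124) and 0.059 for H2-DMb1. Without mitochondrial and Rn7s genes they were 0.058 for H2-Aa, 0.050 for H2-Ab1, 0.054 for H2-Eb1 and 0.00521 for H2-DMb1, and H2-Aa was 6.5e-05 with a pseudocount of 0.1. With a library left out they ran from -0.075 to 0.075 for H2-Aa, -0.084 to 0.080 for H2-Ab1, -0.072 to 0.067 for H2-Eb1 and -0.077 to 0.020 for H2-DMb1, and the genotype-by-sex value of H2-DMa from -0.056 to 0.13. At 25 weeks the log2 difference of Cd74 to H2-Aa then ran from -0.18 to 0.043 and of H2-Ab1 to H2-Aa from -0.015 to 0.068.

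The correlation of the deviations of same-numbered WT and Col6a2-/- samples exceeded 0.1 in 8 of 16 pairs (-0.061 to 0.23), 6 of 8 at 5 weeks and 2 of 8 at 25 weeks. Pairs of unlike number were not compared, so a tie between samples of the same number was not tested. The labels do not say that numbers pair mice, and the main model held no replicate block. With the replicate block 3 members were called in 25-week males and 2 for age in Col6a2-/-; the other counts of members did not change. How far read depth limits the DM genes and Ciita, the members covered least, was not tested.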
